A study of Mus musculus with 6 samples.

Results

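The genes described here encode respiratory complex I, the NADH:ubiquinone oxidoreductase of the inner mitochondrial membrane, and the factors that build it. They are the 46 rows of the deposited count table that are annotated as protein coding and whose symbol begins with Nduf, of 54929 rows in all. Of these, 7 encode the core subunits made in the nucleus, 29 encode accessory subunits, 8 encode assembly factors with the prefix Ndufaf, and 2, Ndufa4 and Ndufa4l2, carry the name by history: the table's own description assigns Ndufa4 to cytochrome c oxidase, and Ndufa4l2 is its paralog. Each member was taken by its name and not by its measured values, but the set was chosen with earlier results of these data known. The members lie on 17 chromosomes.

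Messenger RNA was sequenced from the left ventricle of wild-type C57BL/6 mice. All had undergone TAC (transverse aortic constriction), an operation that narrows the aorta so that the left ventricle pumps against a raised pressure, so no group without constriction enters the comparison. The control group (3 libraries) received an anti-IgG antibody and the treated group (3 libraries) anti-PD-1 antibody, which blocks a checkpoint receptor of T cells. Each was given at 10 mg/kg into the peritoneum every 3 days from day 14 after the operation, and the time stated for all samples is 5 weeks. Whether a library came from 1 animal or from pooled animals is not stated, and p-values therefore cover only the spread between these libraries, which may be technical.

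Complex I takes electrons from NADH, passes them along a chain of iron-sulfur clusters in its matrix arm to ubiquinone, and pumps protons through its membrane arm. The conserved core subunits carry out the chemistry, 7 of them encoded in the mitochondrial genome and the other 7 in the nucleus, and the accessory subunits surround the core and are needed for its assembly and stability. Assembly factors bind intermediates and leave before the complex is finished. Cardiac muscle is rich in mitochondria and draws most of its ATP from oxidative phosphorylation, so these transcripts are abundant there.

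The transcription factors NRF1, GABP, YY1 and the oestrogen-related receptors (ERR) are known to act at promoters of nuclear genes for respiration, and the promoters of the members were searched for their motifs because the members changed together. Promoters, 250 bases before to 50 after each start, were taken from RefSeq (GRCm38.p6) and matched by symbol for 40 of the 46 members, with 42 promoters. The letters searched, on both strands, were GCGCA followed directly by its reverse complement for NRF1, CCGGAAGT for GABP and related ETS factors, AAGATGGCG for YY1 and AAGGTCA for ERR. The NRF1 letters stood in 3 members (Ndufa11, Ndufaf4 and Ndufaf5), which is 7.14% of member promoters against 0.971% of the 32851 promoters in the table. The YY1 letters stood in 6 members (Ndufa9, Ndufaf8, Ndufc1, Ndufs4, Ndufs6 and Ndufs7), 14.3% against 1.40%. ERR letters were found in 3 (Ndufb2, Ndufb4 and Ndufs5), 7.14% against 4.72%, and GABP letters in 1 (Ndufs3), 2.38% against 3.89%. In all, 13 members held at least 1 of these strings and 27 held none. A match of letters is a description and not a binding site. Only exact letters were counted, so a promoter without a match may still hold a variant of a motif.

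Shown here are 2 promoters with the NRF1 letters, 1 with the ERR letters, and that of Ndufa1, which fell strongly and held none of the 4 strings. Of the 2 genes with NRF1 letters, Ndufa11 was called lower (log2 fold change -1.26, edgeR adjusted p = 0.0303) and Ndufaf4 was not called (0.15, adjusted p = 0.590). The Ndufa11 call was lost on leaving out any of 4 libraries and under both length corrections described below. The difference between these 2 genes was not tested. The promoters were chosen after the values were seen. Each run is the 120 bases before the start on the gene's own strand, 5′ to 3′, with the motif in capitals. The positions are chr17:56717642-56717761 (plus strand) for Ndufa11, chr4:24897963-24898082 (plus strand) for Ndufaf4, chr16:37654369-37654488 (minus strand) for Ndufb4 and chrX:37191239-37191358 (minus strand) for Ndufa1.
Ndufa11: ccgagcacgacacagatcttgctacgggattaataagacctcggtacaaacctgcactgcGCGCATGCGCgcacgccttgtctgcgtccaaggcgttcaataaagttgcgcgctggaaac
Ndufaf4: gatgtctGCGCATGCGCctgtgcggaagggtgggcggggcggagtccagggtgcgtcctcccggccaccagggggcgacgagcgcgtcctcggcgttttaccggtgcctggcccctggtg
Ndufb4: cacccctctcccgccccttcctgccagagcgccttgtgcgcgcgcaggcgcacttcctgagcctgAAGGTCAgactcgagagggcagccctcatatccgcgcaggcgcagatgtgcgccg
Ndufa1: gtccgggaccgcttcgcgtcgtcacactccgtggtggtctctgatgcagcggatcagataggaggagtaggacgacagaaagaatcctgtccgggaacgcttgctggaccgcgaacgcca

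The libraries held 18063344 to 21093163 counted reads, of which 28.9 to 39.3% came from the mitochondrial genome and 68284 to 199447 from the 46 members. The members together took 0.845, 0.839 and 1.01% of all reads in the 3 anti-IgG libraries and 0.366, 0.478 and 0.447% in the 3 anti-PD-1 libraries, so the groups did not overlap. Of the reads from nuclear genes alone, the members took 1.22, 1.38 and 1.44% with anti-IgG against 0.514, 0.743 and 0.670% with anti-PD-1. In bulk tissue, fewer cells of a type and less RNA per cell cannot be told apart.

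Most transcripts of complex I were lower with anti-PD-1 than with anti-IgG, and the accessory subunits had a lower median fold change than the core subunits or the assembly factors; the classes also differ in transcript length, and this difference between them was not tested. All 46 members passed the filter on low counts, and 35 were lower at an adjusted p under 0.05 (edgeR's quasi-likelihood test, Benjamini-Hochberg adjustment over all 14807 genes tested), 0 were higher and 11 did not pass. Of all genes tested, 10.8% were called lower and 10.3% higher; higher genes made up 48.9% of the calls, and 36.8% under upper quartile scaling, where 41 members were lower. The log2 fold change (anti-PD-1 minus anti-IgG) was below 0 for 44 members and its median was -1.20, against -0.03 over all genes tested. In 40 members every anti-PD-1 value lay below every anti-IgG value, in 0 the reverse held, and in 6 the groups overlapped; among all genes tested, 20.8% had no overlap and were lower, and 20.2% had none and were higher. With each library's trend on the authors' gene length removed, 19 members were lower (5.13% of all genes). With the trends on coding length and on 3′ UTR length removed, 6 were (2.5% of all genes). Both corrections are described further on. Leaving out anti-IgG replicate 2 left 17 members called lower, where 2.09% of all genes were, and leaving out anti-PD-1 replicate 1 left 23, where 3.1% were.

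**Figure D1:**
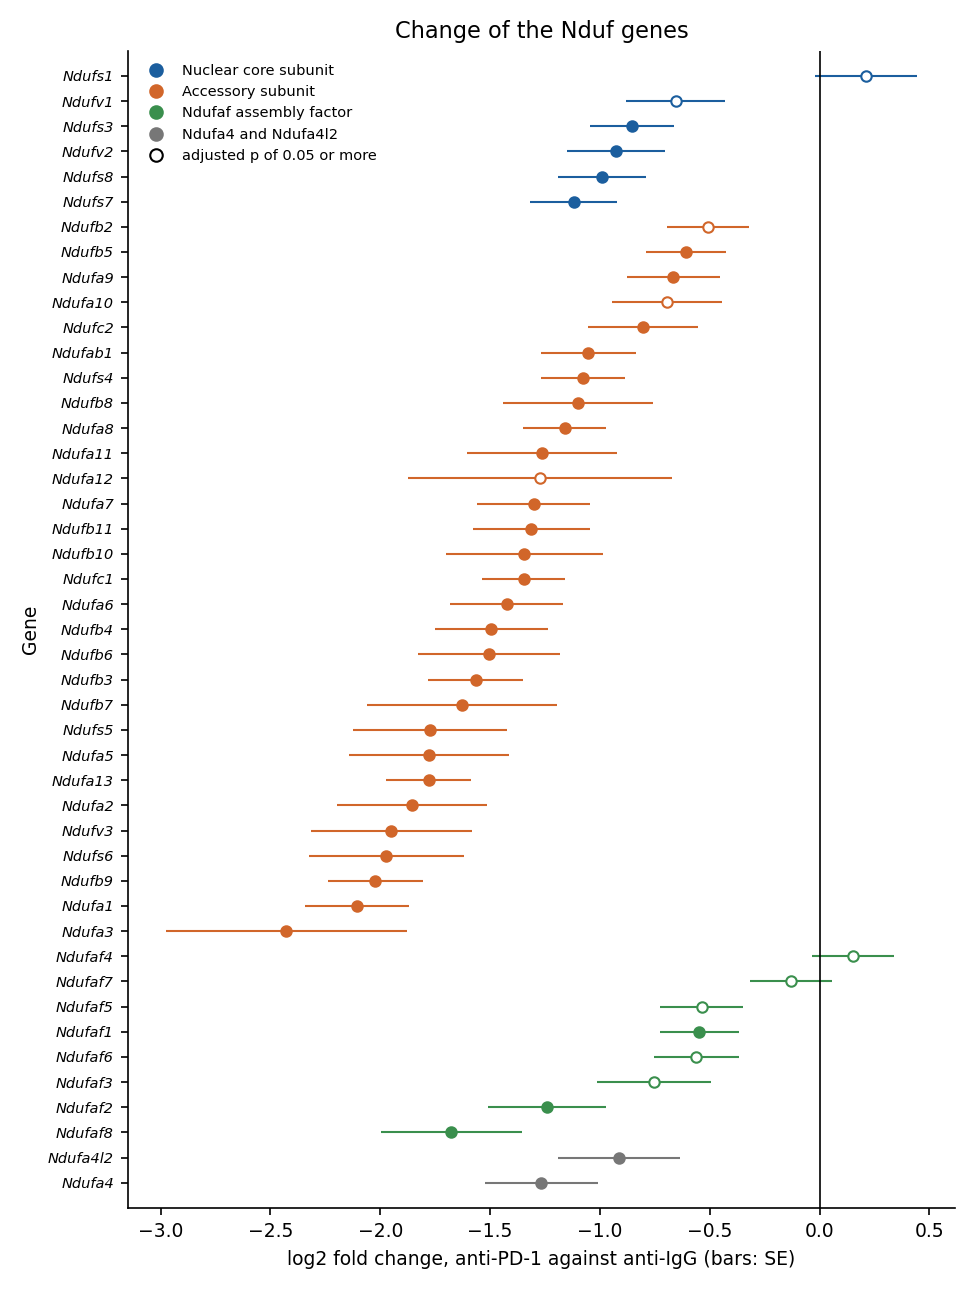
Log2 fold change (anti-PD-1 minus anti-IgG, horizontal axis) with its SE for the members, grouped by role; filled points passed an adjusted p under 0.05 and open points did not. The 2 points right of 0, Ndufs1 and Ndufaf4, are open.

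The nuclear core subunits carry the flavin and iron-sulfur clusters of the matrix arm, and 4 of the 7 were lower (Ndufs7, Ndufs8, Ndufs3 and Ndufv2), 0 were higher and 3 did not pass. Their median log2 fold change was -0.86, which is 1.81-fold lower, with a range of -1.12 to 0.21. Values below are CPM, each library's counts scaled by its TMM-adjusted total, in the order of replicates 1 to 3. Ndufs7 (chr10:80249121-80256794, mm10, as are all gene positions below), which holds the last iron-sulfur cluster before ubiquinone, had 322, 370.4 and 373 CPM with anti-IgG and 139, 192 and 159 CPM with anti-PD-1. All 3 treated libraries lay below all 3 controls, and the log2 fold change was -1.12 (SE 0.20, edgeR adjusted p = 0.00715). This call held without any 1 library, the only one among the core subunits to do so.

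Ndufs8 (chr19:3908870-3912717), another iron-sulfur subunit next to Ndufs7, had 176, 256 and 241 CPM with anti-IgG and 104, 125 and 109 CPM with anti-PD-1. The groups did not overlap, and the log2 fold change was -0.99 (SE 0.20, edgeR adjusted p = 0.0103; 0.0521 without anti-IgG replicate 2). Ndufs3 (chr2:90894634-90904827), a subunit of the ubiquinone module with no cofactor of its own, had 237, 276 and 280.4 CPM against 127, 167 and 144 CPM. Its log2 fold change was -0.86 (SE 0.19, edgeR adjusted p = 0.0136), again without overlap, and the adjusted p was 0.0565 without anti-IgG replicate 2 and 0.0644 without anti-PD-1 replicate 1. Ndufv2, the iron-sulfur subunit next to the NADH site, fell by 0.93 on the log2 scale (edgeR adjusted p = 0.0177).

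Ndufs1 (chr1:63143596-63176833), the largest subunit of the complex, which carries iron-sulfur clusters of the NADH-oxidising module, had the highest log2 fold change of all members. It had 393, 245 and 293 CPM with anti-IgG and 317, 439 and 321 CPM with anti-PD-1. The groups overlapped, and the log2 fold change was 0.21 (SE 0.23, edgeR adjusted p = 0.542). Ndufv1, the subunit that binds NADH and the flavin, stood at -0.66 (adjusted p = 0.0598). The core subunits that did not pass therefore included both Ndufs1 and Ndufv1 of the NADH-oxidising module.

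**Figure D2:**
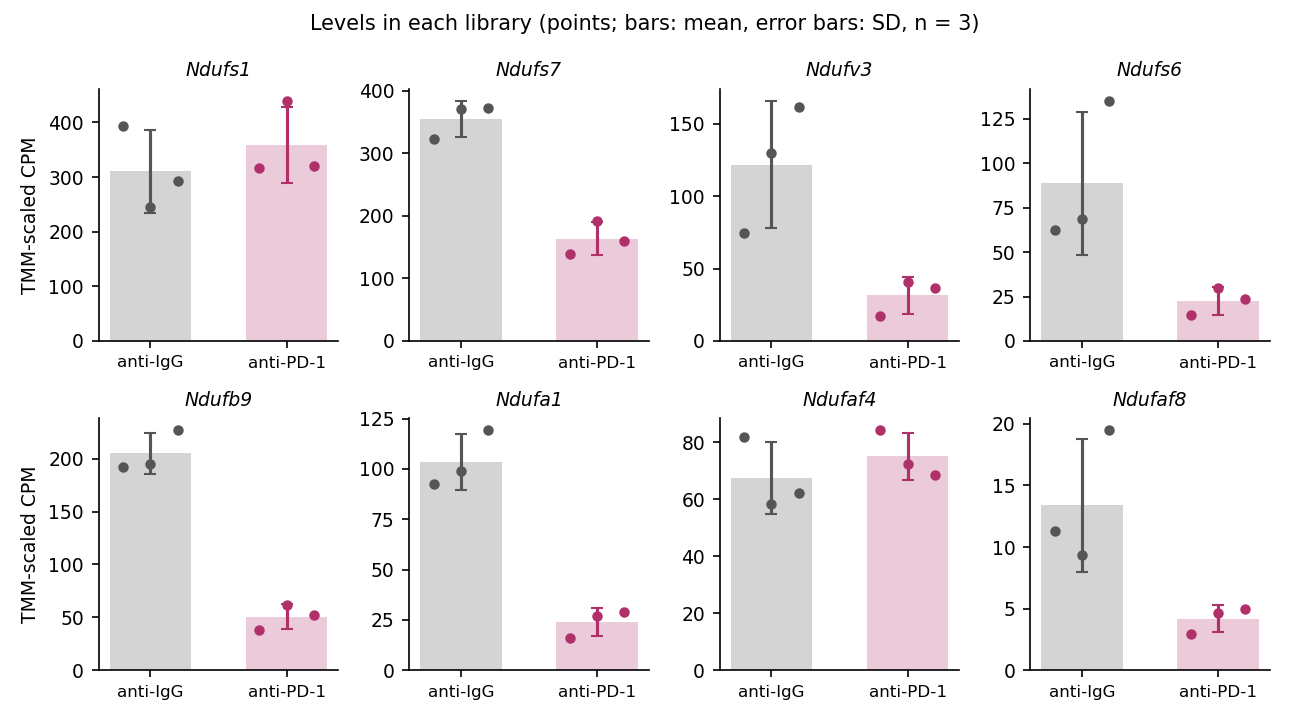
TMM-scaled CPM of 8 members in each library, with bars at the group mean and error bars of 1 SD (n = 3 each). For Ndufs7, Ndufv3, Ndufs6, Ndufb9, Ndufa1 and Ndufaf8 the anti-PD-1 points lie below all anti-IgG points, and for Ndufs1 and Ndufaf4 the groups overlap.

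Accessory subunits of the matrix arm surround the iron-sulfur chain, and 8 of 9 were lower and 0 higher, with a median log2 fold change of -1.43 (range -1.97 to -0.67). Ndufs4 (chr13:114287795-114388258), a subunit whose mutation is a known cause of Leigh syndrome, had 177, 210.4 and 184 CPM with anti-IgG and 74.7, 105 and 91.2 CPM with anti-PD-1. The log2 fold change was -1.08 (SE 0.19, edgeR adjusted p = 0.00744), and the treated libraries all lay below the controls. Ndufa6 (chr15:82350140-82354322), a member of the LYR protein family that anchors an acyl carrier protein to the matrix arm, had 175, 229 and 263 CPM against 54.9, 107 and 86.1 CPM. Its groups did not overlap either, and the log2 difference was -1.43 (SE 0.26, edgeR adjusted p = 0.00756).

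Ndufs6 (chr13:73319838-73328542), a zinc-binding subunit, had 62.3, 68.6 and 135 CPM with anti-IgG and 14.4, 29.9 and 23.5 CPM with anti-PD-1. It fell by 1.97 on the log2 scale (SE 0.35, edgeR adjusted p = 0.00883), the lowest fold change of the matrix arm, and anti-IgG replicate 3 stood well above the other two controls. Ndufv3, an accessory subunit of the NADH-oxidising module named here after its values were seen, had 74.6, 129 and 161 CPM against 17.1, 40.7 and 36.7 CPM. Its log2 fold change was -1.95 (SE 0.37, edgeR adjusted p = 0.0103). Of the core subunits of that module, Ndufv2 was also lower and Ndufs1 and Ndufv1 did not pass; the difference between these genes was not tested.

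Ndufa12 (chr10:94198720-94221443) occupies the place that the assembly factor Ndufaf2 holds in the unfinished complex, and it was the 1 matrix-arm subunit that did not pass. It had 54.9, 142 and 103 CPM with anti-IgG and 18.0, 79.5 and 26.4 CPM with anti-PD-1. The second library was the highest of each group, and the groups overlapped, and the log2 difference was -1.27 (SE 0.60, edgeR adjusted p = 0.174). Without anti-PD-1 replicate 2 the log2 fold change was -2.14 (adjusted p = 0.0131).

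Accessory subunits of the membrane arm are mostly small proteins that clamp the proton-pumping core, and 17 of 19 were lower and 0 higher, with a median log2 fold change of -1.35 (range -2.43 to -0.51). Ndufb9 (chr15:58933756-58939488), the LYR protein that anchors an acyl carrier protein to the membrane arm, had the smallest adjusted p of all members. It had 192, 195 and 227 CPM with anti-IgG and 37.8, 61.6 and 51.8 CPM with anti-PD-1. Levels with anti-PD-1 were 4.06-fold lower, with no overlap, and the log2 fold change was -2.02 (SE 0.22, edgeR adjusted p = 0.00167).

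Ndufa13 (chr8:69894180-69902558), also known as GRIM-19, had 218, 247 and 212 CPM with anti-IgG and 54.3, 74.6 and 68.4 CPM with anti-PD-1. The log2 fold change was -1.78 (SE 0.19, edgeR adjusted p = 0.00172), and the ranges stood far apart. Ndufa1 (chrX:37187588-37191163), a membrane-spanning subunit, had 92.5, 98.9 and 119 CPM against 16.1, 27.0 and 29.0 CPM. It was 4.31-fold lower, without overlap, at -2.11 on the log2 scale (SE 0.24, edgeR adjusted p = 0.00199). Ndufb2 (chr6:39592574-39603382), a subunit of the distal membrane arm, was at 19.6, 18.2 and 18.1 CPM with anti-IgG and 11.7, 13.1 and 14.5 CPM with anti-PD-1. Its groups did not overlap, yet it did not pass at -0.51 on the log2 scale (SE 0.19, edgeR adjusted p = 0.0732), and neither did that of Ndufa10, another membrane-arm subunit (-0.69, adjusted p = 0.0695).

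Ndufab1, the mitochondrial acyl carrier protein, stands in both arms, where it binds Ndufa6 and Ndufb9. It had 191, 238 and 212 CPM with anti-IgG and 77.4, 127 and 104 CPM with anti-PD-1. The log2 fold change was -1.05 (SE 0.22, edgeR adjusted p = 0.0105; 0.051 without anti-IgG replicate 2). All 3 partners were therefore lower in the treated libraries. Over the 29 accessory subunits, 26 were lower and the median was -1.35 (2.55-fold lower), and 14 of the 26 calls held without any 1 library.

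The Ndufaf assembly factors act on intermediates of the complex, and 3 of 8 were lower (Ndufaf8, Ndufaf2 and Ndufaf1), 0 were higher and 5 did not pass, with a median log2 fold change of -0.55 (range -1.68 to 0.15). Ndufaf8 (chr11:120098928-120100705), a partner that stabilises Ndufaf5, had 11.3, 9.34 and 19.5 CPM with anti-IgG and 2.94, 4.66 and 4.95 CPM with anti-PD-1. The groups did not overlap, and the log2 fold change was -1.68 (SE 0.32, edgeR adjusted p = 0.00872). Ndufaf2 (chr13:108002715-108158623), a paralog of Ndufa12 that helps to add the NADH-oxidising module, had 10.7, 16.4 and 19.6 CPM against 5.38, 6.32 and 8.02 CPM. It fell by 1.24 on the log2 scale (SE 0.27, edgeR adjusted p = 0.0126), without overlap; the adjusted p was 0.0607 without anti-IgG replicate 2 and 0.0526 without anti-PD-1 replicate 1.

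Ndufaf1 (chr2:119655446-119662827) is part of the assembly complex of the membrane arm and had 45.2, 50.7 and 45.0 CPM with anti-IgG and 28.8, 38.4 and 29.2 CPM with anti-PD-1. Its call was marginal, at -0.55 on the log2 scale (SE 0.18, edgeR adjusted p = 0.0497), and was lost under RLE scaling (adjusted p = 0.0543) and without any 1 library except anti-PD-1 replicate 2 (0.0569 to 0.179). Ndufaf7 (chr17:78937136-78948052), a methyltransferase of the mitochondrial matrix, had 20.0, 21.9 and 21.7 CPM against 22.6, 19.0 and 16.5 CPM. The groups overlapped, and the log2 fold change was -0.13 (SE 0.19, edgeR adjusted p = 0.647). Ndufaf4 (chr4:24898083-24905001), a factor of the ubiquinone module, had 82.0, 58.5 and 62.2 CPM with anti-IgG and 84.3, 72.5 and 68.6 CPM with anti-PD-1. These values overlapped too, at 0.15 on the log2 scale (SE 0.19, edgeR adjusted p = 0.590). Ndufaf3, which works with Ndufaf4, was at -0.75 (adjusted p = 0.0589), Ndufaf5, which hydroxylates Ndufs7, at -0.54 (0.0648), and Ndufaf6, an early-acting factor, at -0.56 (0.0595).

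Ndufa4 (chr6:11900292-11907497), a subunit of cytochrome c oxidase, had 594, 616 and 663 CPM with anti-IgG and 167, 337 and 274 CPM with anti-PD-1. The log2 fold change was -1.27 (SE 0.26, edgeR adjusted p = 0.0103), and the groups did not overlap. Ndufa4l2 (chr10:127514967-127517154), its hypoxia-inducible paralog, had 23.1, 29.0 and 34.9 CPM against 9.07, 18.4 and 18.7 CPM, without overlap. It fell by 0.91 on the log2 scale (SE 0.28, edgeR adjusted p = 0.0408), and this call was lost without either of anti-IgG replicates 2 and 3 or anti-PD-1 replicates 1 and 3 (adjusted p 0.0545 to 0.125).

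Levels of different genes were compared on the authors' FPKM, which divide reads by a gene length of their own. The median FPKM with anti-IgG was 192 for the core subunits, 112 for the accessory subunits and 12.2 for the Ndufaf factors. Ndufa4 was the highest member with anti-IgG, at 421 ± 23.9 FPKM (SD, n = 3), followed by Ndufb11 at 297 ± 28.5 and Ndufa5 at 284 ± 57.0, which differed by less than their spread. The lowest members were Ndufb2 (3.08 ± 0.164), Ndufaf2 (4.85 ± 1.40) and Ndufaf7 (5.64 ± 0.239). The authors' gene length for Ndufb2 was 5628 bp, with a coding length of 318 bp, so its rank depends on the length used. With anti-PD-1, Ndufa4 was again the highest at 177 ± 56.7 FPKM. Ndufs1 moved from rank 35 of 46 to rank 23, and Ndufa3, a small membrane-arm subunit, from rank 24 to rank 35.

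**Figure D3:**
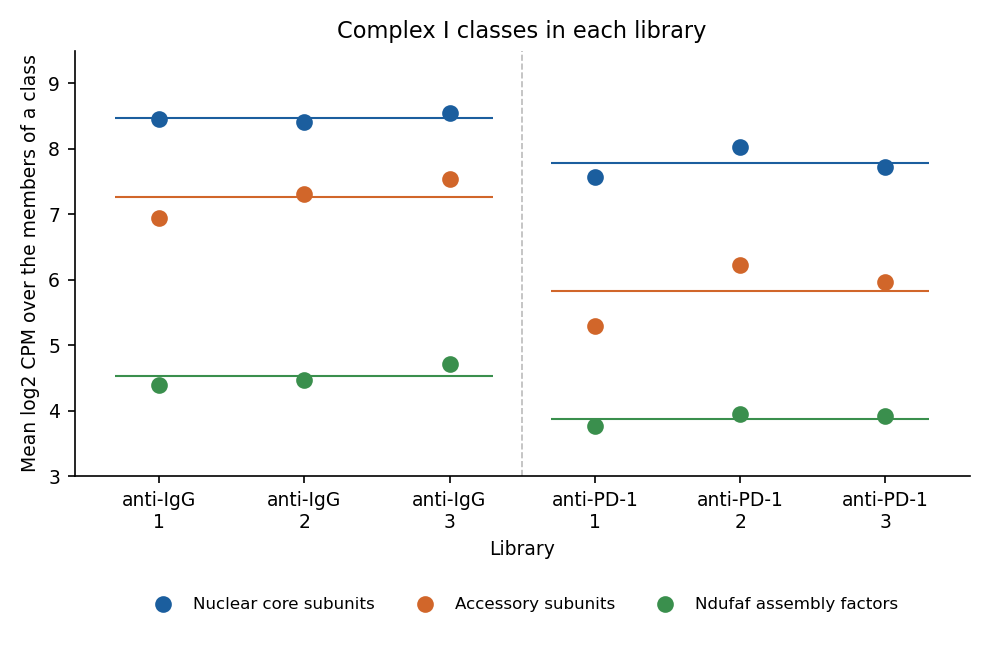
Mean log2 CPM over the members of each class in each of the 6 libraries. The accessory subunits lie at 6.95 to 7.55 with anti-IgG and at 5.29 to 6.23 with anti-PD-1, and the core subunits at 8.41 to 8.56 and 7.58 to 8.03.

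Within each library, the classes were set against each other as a difference of mean log2 CPM, in which the scaling between libraries largely cancels. A trend on transcript length does not cancel, since the median coding plus 3′ UTR length was 622 bp for the accessory and 1477 bp for the core subunits. With trends on coding length and on 3′ UTR length removed, the median log2 fold changes of these classes were -0.58 and -0.15. Accessory minus core subunits was -1.51, -1.09 and -1.01 with anti-IgG and -2.29, -1.80 and -1.76 with anti-PD-1, so the 2 groups did not overlap. With 3 against 3 libraries an exact permutation test cannot go below p = 0.1, and none was run on this difference, since the members were chosen with earlier results known. For the Ndufaf factors the difference from the core was -4.06, -3.94 and -3.84 with anti-IgG and -3.81, -4.08 and -3.81 with anti-PD-1, and the groups overlapped. Libraries of a group also differed in all classes together: anti-PD-1 replicate 1 was the lowest of its group in 40 of 46 members and anti-PD-1 replicate 2 the highest in 35, while anti-IgG replicate 1 was the lowest in 37 and anti-IgG replicate 3 the highest in 33.

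The 7 core subunits encoded by the mitochondrial genome form the proton-pumping membrane core, and 0 of them passed in either direction, with a median log2 fold change of -0.11. The mean log2 CPM of the nuclear core minus that of the mitochondrial core was -4.13, -5.10 and -4.06 with anti-IgG and -5.16, -5.20 and -4.92 with anti-PD-1, and anti-IgG replicate 2, the library with the largest share of mitochondrial reads, fell within the range of the treated libraries. mt-Nd5 had 17787, 31267 and 19732 CPM with anti-IgG and 36140.0, 48171 and 37011 CPM with anti-PD-1. This was the 1 mitochondrial core subunit without overlap, and it did not pass at 0.82 on the log2 scale (SE 0.31, edgeR adjusted p = 0.0827). With the gene length trend removed it passed as higher (1.31, adjusted p = 0.0214), and the median of the mitochondrial core turned to 0.59. Its reads cannot be told apart from those of mt-Nd6 where the 2 genes overlap on opposite strands, since the strand setting of the counting is not stated.

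Other proteins known to assemble complex I, without the Nduf name, were listed as 11 genes, of which 10 had a row and were tested. Of these 1 was lower and 0 were higher, where 10.8% of all genes tested were lower and 10.3% higher, so the count lower was near that share. The median log2 fold change of the 10 was -0.26. The gene that fell was Dmac1, a factor of the distal membrane arm, at 22.5, 23.9 and 28.0 CPM with anti-IgG and 9.47, 12.3 and 12.9 CPM with anti-PD-1 (log2 change -1.10, SE 0.20, edgeR adjusted p = 0.00761). This call was lost with the gene length trend removed (-0.36, adjusted p = 0.194) and with the transcript length trend removed (-0.19, adjusted p = 0.541). Next by p came Acad9, a partner of Ndufaf1, at 0.42 (adjusted p = 0.135).

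Among 10 regulators of respiratory gene transcription, 3 were higher and 0 lower, where 10.3% of all genes tested were higher. The median log2 fold change of the regulators was 0.26, and their median coding plus 3′ UTR length was 3883.5 bp. Of all genes tested with 3494 to 4953 bp, 388 of 2607 were higher, and of longer ones 841 of 2608. With the gene length trend removed 3 regulators were higher, and with the transcript length trend removed 1 was. Ppara, a nuclear receptor of fatty acid oxidation, had 5.28, 2.13 and 3.20 CPM with anti-IgG and 27.6, 50.0 and 14.7 CPM with anti-PD-1 (log2 fold change 3.11, SE 0.49, edgeR adjusted p = 0.00737). Esrrg, an oestrogen-related receptor, rose by 0.85 (adjusted p = 0.0155) and the coactivator Ppargc1b by 0.93 (adjusted p = 0.0356). The coactivator Ppargc1a stood at 0.93 (adjusted p = 0.127), Nrf1 at 0.12 (0.684), Gabpa at 0.34 (0.209) and Yy1 at 0.18 (0.456). Members whose promoter held the NRF1 letters had a median log2 fold change of -0.54 and those matched without them -1.27, for the ERR letters the medians were -1.49 and -1.24, and for the YY1 letters -1.23 and -1.25. Only 3, 3 and 6 members held them, so these medians are a description.

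Markers of the ventricle's cell types were read beside these results. Of 8 cardiomyocyte markers 3 were lower (Tnnt2 -1.22, Tnni3 -1.35 and Myl2 -1.87), 1 was higher (Ryr2 1.39) and 4 did not pass, while 0 of 8 passed with the transcript length trend removed (median 0.02). Their summed level was 23414 to 31767 CPM with anti-IgG and 13850 to 26954 CPM with anti-PD-1. The summed fibroblast markers were at 1388 to 2125 and 1611 to 2722 CPM and the endothelial markers at 1300 to 1432 and 1129 to 1427 CPM, with 0 of 6 and 0 of 5 passing. Macrophage markers summed to 107 to 169 CPM with anti-IgG and 149 to 170 CPM with anti-PD-1, with 1 of 5 higher, T cell markers to 2.46 to 4.20 and 2.55 to 3.34 CPM, and atrial, skeletal muscle and adipocyte markers each to at most 2.24 CPM in any library. Smooth muscle and pericyte markers summed to 1844 to 2367 and 2219 to 2481 CPM, with 1 of 5 lower, and erythrocyte markers to 275 to 630.2 and 97.6 to 765 CPM. The summed cardiomyocyte level overlapped between the groups, and the part of these markers in the complex I result was not tested.

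The change of the members moved with the length of the gene. Across the 46 members, Spearman's rho of the log2 fold change with the authors' gene length was 0.60, with the coding length 0.62, with the 3′ UTR length 0.29 and with coding plus 3′ UTR length 0.71, each across genes that share the same 6 libraries and are not independent. With the mean CPM in the anti-IgG group rho was 0.01. Over all 14807 genes tested rho with gene length was 0.49, and over the 13038 with transcript lengths it was 0.63. Within the 29 accessory subunits alone, rho was 0.55 with gene length and 0.61 with coding plus 3′ UTR length.

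The classes differed in these lengths. The median coding length was 792 bp for the core subunits, 396 bp for the accessory subunits and 772.5 bp for the Ndufaf factors, and the median coding plus 3′ UTR length was 1477, 622 and 1078.5 bp. Of the 28 members under 1000 bp of coding plus 3′ UTR, 27 were lower, with a median log2 fold change of -1.38; of all 955 genes tested in that length range 58.8% were lower, with a median of -0.99. Of the 18 longer members 8 were lower, with a median of -0.66, against 6.66% and a median of 0.06 over the 12083 genes of that length. When all genes tested were split by gene length into 5 groups of about equal number, the shortest group (57 to 2150 bp) held 31 members, of which 27 were lower (median -1.31), while 28.1% of all genes in that group were lower (median -0.66). The next group (2151 to 3458 bp) held 8 members, 5 of them lower (median -0.97, against -0.24 and 12.4% lower over all its genes). Ndufs1 was the 1 member in the group of longest genes, where the median of all genes was 0.39.

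**Figure D4:**
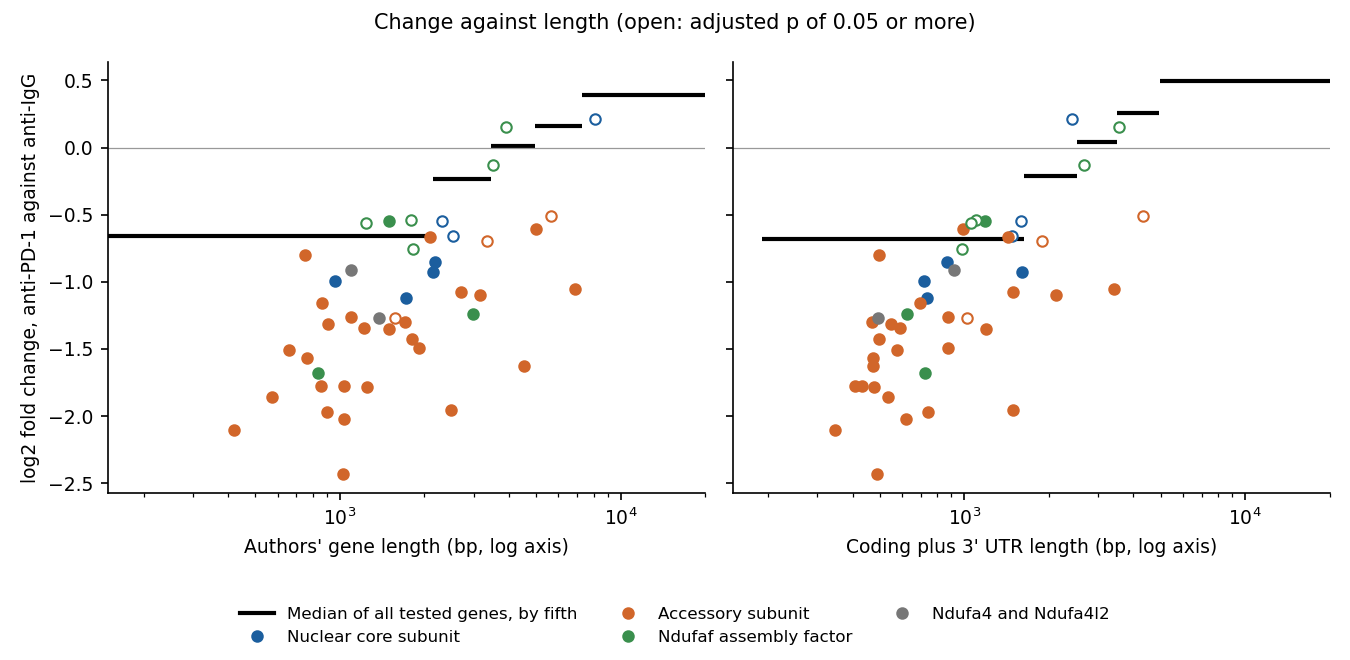
Log2 fold change of each member against the authors' gene length (left) and against coding plus 3′ UTR length (right), both on log axes in bp; horizontal lines are the medians of all genes tested in each of 5 length groups, clipped at the axis ends. The lines rise from -0.66 to 0.39 on the left and from -0.68 to 0.49 on the right.

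Each library's trend of log2 CPM on gene length was then removed and the test repeated. After that, 19 members were lower and 0 higher, where 5.13% of all genes were lower and 5.17% higher. By class, 17 of 29 accessory subunits (median -0.83), 0 of 7 core subunits (median -0.37) and 2 of 8 Ndufaf factors (median -0.04) were lower. The authors' gene length is at least 3 times the coding plus 3′ UTR length for 6 members. Trends on coding length and on 3′ UTR length, fitted together as separate terms, were therefore removed as well. This alternative, the transcript length correction, was chosen after the data were seen. Then 6 members were lower and 0 higher, where 2.5% of all genes were lower and 2.73% higher. The median over the members was -0.42, with 40 of 46 below 0. Across the members some relation to length remained. Spearman's rho with gene length was 0.21 after the gene length correction. With coding plus 3′ UTR length it was 0.29 after the transcript length correction.

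All 6 that stayed past the threshold under the transcript length correction encode accessory subunits. Ndufb9 stood at -1.14 (edgeR adjusted p = 0.0103), Ndufa1 at -0.90 (0.0182), Ndufv3 at -1.43 (0.026), Ndufab1 at -0.92 (0.0318), Ndufa13 at -0.80 (0.0338) and Ndufs6 at -1.06 (0.0418). They include the membrane-arm LYR protein and its acyl carrier protein, a zinc-binding subunit of the matrix arm and a subunit of the NADH-oxidising module. The median was -0.58 for the accessory subunits, -0.15 for the core and -0.04 for the Ndufaf factors, with 6 of 29, 0 of 7 and 0 of 8 lower. Ndufs1 was at 0.47 and Ndufc2, a membrane-arm subunit that had been called at -0.80, at 0.23 (adjusted p = 0.432). Ndufab1 changed little, from -1.05 to -0.92. Its longest annotated transcript, used for the correction, is long for a complex I gene at 3415 bp of coding plus 3′ UTR. The annotated transcript used for Ndufv3 has a coding length of 1407 bp. Which transcripts the ventricle expresses was not examined, so the lengths corrected for may not be those expressed. Of the regulators, 1 stayed past the threshold (Ppara, 3.02, adjusted p = 0.0228).

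**Figure D5:**
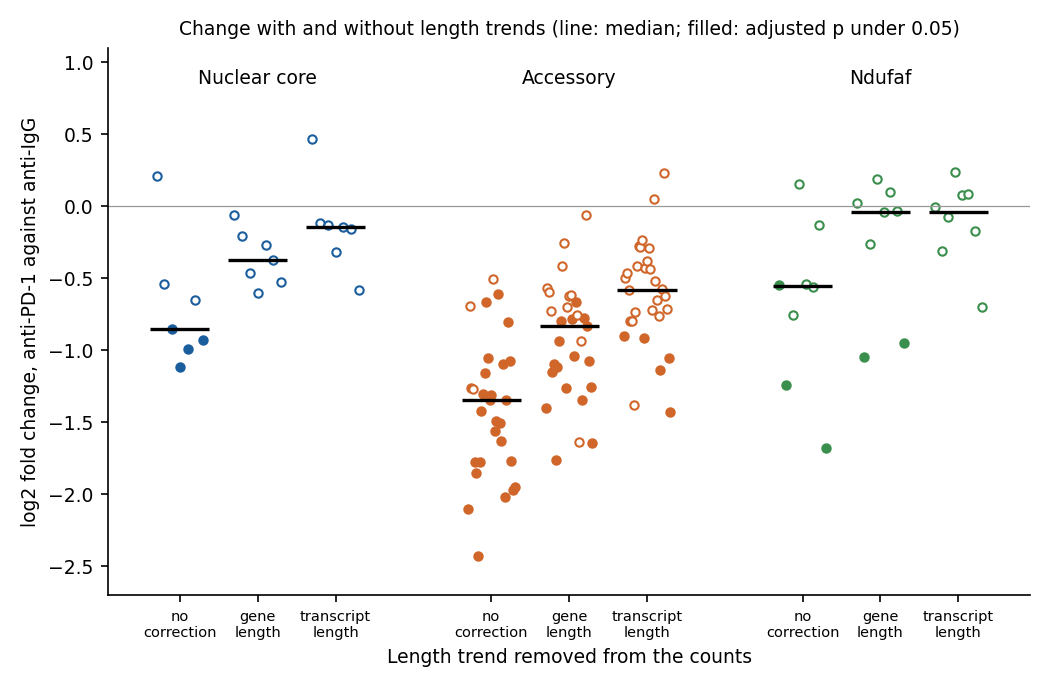
Log2 fold change of each member, by class, without a length correction, with the gene length trend removed, and with the transcript length trend removed. The accessory median moves from -1.35 to -0.83 and -0.58, the core median from -0.86 to -0.37 and -0.15, and the Ndufaf median from -0.55 to -0.04 and -0.04.

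Some counts may hold reads of another gene, or may lack reads from exons shared with another gene. Exons of 19 members overlap those of other genes, 17 of them on the opposite strand, and strand use in counting is not stated. Of the members named above, Ndufs1 shares 489 exon bases with Ino80dos (128 reads over all libraries) and 9 with Eef1b2 (13818 reads). Ndufa13 shares 375 with Tssk6 (19 reads), and Ndufs6 shares 30 with Mrpl36 (3231 reads). Ndufb9 shares 201 on its own strand with Gm49356 (0 reads), and Ndufb2 shares 146 with Braf (3827 reads). Further named members overlap other genes too, among them Ndufs3, Ndufab1, Ndufaf2, Ndufaf3, Ndufa4l2 and Ndufb11.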

How the data were processed

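RNA from left ventricle was sequenced as mRNA libraries (3 anti-IgG, 3 anti-PD-1; groups from the labels). The authors deposited raw read counts per gene and FPKM values; featureCounts and mm10 are named in the submitters' processing notes, and no source used here names an aligner. The authors' gene length column, an unnormalised length in bp, was deposited with the counts. Counts were tested here with edgeR 4.0.16 (R 4.3.3): filterByExpr, TMM, glmQLFit with robust=TRUE, 2-sided, Benjamini-Hochberg over all genes tested. The SE is the log2 fold change divided by the square root of F. The test and the gene length correction were checked on simulated data, and the transcript length correction was not.

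Coding and 3′ UTR lengths are those of the longest GENCODE M21 protein-coding transcript that has both; genes without them, the mitochondrial ones included, were not corrected. Trends of log2 CPM (prior count 2) on log length were fitted per library by natural splines (5 degrees of freedom for each length) and entered as offsets. The transcript length correction used separate splines for coding length and for 3′ UTR length, fitted together. Members, lists and tests were chosen with earlier results of these data known. In each class the 3 members with the smallest p and the 1 with the largest are given in full, with the 2 highest log2 fold changes, Ndufa4 and Ndufa4l2; other named members were chosen after their values were seen. Alternatives were RLE and upper quartile scaling, mitochondrial genes left out, no filter, a stricter filter (1 CPM in at least 3 libraries), limma 3.58.1 (voom on counts; trend on the deposited FPKM with pseudocounts of 1 and 0.1), DESeq2 1.42.0, robust=FALSE, a replicate block, the length corrections, and each library left out. The values of 1 core subunit are not reported here, though it enters the counts and medians.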

Additional observations from a re-analysis of the deposited data

How the results depend on the processing

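The 35 members called lower became 34 under RLE scaling and 41 under upper quartile scaling, 38 with DESeq2, 35 with limma-voom and 31 to 33 on FPKM, and 0 were higher under any alternative run. Leaving out 1 library left 17 to 37 lower (17 without anti-IgG replicate 2, 23 without anti-PD-1 replicate 1), while 2.09 to 12.2% of all genes were lower. Over these, the median log2 fold change was -0.94 to -0.76 for the core, -1.64 to -1.19 for the accessory subunits and -0.60 to -0.50 for the Ndufaf factors. With the gene length trend removed 19 were lower (20 with the replicate block), and the medians were -0.37 (core; -0.34 with the block), -0.83 (accessory; -0.90) and -0.037 (Ndufaf; -0.043). With the transcript length trend removed 6 were lower (7 with the block), and the medians were -0.15 (core; -0.13), -0.58 (accessory; -0.63) and -0.041 (Ndufaf; -0.042). Ndufaf1 turned to 0.023 with the gene length trend removed and 0.020 with the block added. The cause of these shifts was not tested. Deviations of same-numbered libraries from their group means had correlations of 0.12, -0.14 and 0.21 for replicates 1 to 3. The highest correlation with a library of another number was 0.18, 0.20 and -0.08. With 3 libraries in each group these values cannot settle whether the numbers pair the samples. The replicate block alone gave 37 lower, with Ndufa12 added (edgeR adjusted p = 0.00258). Upper quartile scaling moved the median of all genes by -0.09. The planned comparison with protein length was not run. Among the named members the lowest level was that of Ndufaf8, 2.94 CPM in anti-PD-1 replicate 1.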

Other observations

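The table holds 5 further rows whose symbol begins with Nduf and which are not annotated as protein coding. Ndufb1-ps, which the table's own description names as the NDUFB1 subunit of the membrane arm although its row is classed as a long non-coding RNA, had 114, 133 and 101 CPM with anti-IgG and 34.5, 42.2 and 38.3 CPM with anti-PD-1. Its groups did not overlap, and the log2 fold change was -1.60 (SE 0.18, edgeR adjusted p = 0.00199), within the range of the membrane-arm subunits. Ndufab1-ps, a processed copy of Ndufab1, was at 59.4, 71.1 and 63.6 CPM against 29.6, 43.2 and 41.6 CPM (log2 fold change -0.76, adjusted p = 0.0202). Ndufb4c stood at -1.57 (edgeR adjusted p = 0.0351) and Ndufs6b at -2.30 (edgeR adjusted p = 0.0155), both on few reads. Ndufb4c had 68, 63 and 74 reads with anti-IgG and 9, 34 and 28 with anti-PD-1. Ndufs6b had 46, 51 and 30 reads with anti-IgG and 12, 3 and 12 with anti-PD-1. Reads of such near-identical copies may come from the parent gene, so these rows and their parents are uncertain. Ndufa11b had 0 reads in all 6 libraries.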
